A study of Mus musculus with 9 samples.

Results

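Integrins are cell surface receptors made of 1 alpha and 1 beta subunit that bind matrix proteins or proteins on other cells when divalent cations occupy their ligand sites. The beta 2 subunit (Itgb2) pairs with the alpha subunits Itgal, Itgam and Itgax on leukocytes, and in the retina Itgam with Itgb2, the complement receptor also called CD11b/CD18, is a standard mark of microglia and macrophages. The beta 1 subunit (Itgb1) pairs with Itga4, Itga5, Itga6 and Itgav on many cells, neurons and glia included, and its dimers bind fibronectin, laminins and vascular cell adhesion molecule 1. Itgav also pairs with Itgb5 in a receptor for vitronectin and other ligands that carry an arginine-glycine-aspartate motif.

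These 10 genes (Itgam, Itgax, Itgal, Itgb2, Itga4, Itga5, Itga6, Itgav, Itgb1 and Itgb5) were chosen by name from the leukocyte and neural integrins, when earlier results of these data were known. Of the 10, 8 were among the 15228 genes of the expression table. Itgal and Itga5 were not, and they were not analysed here. Levels are given in RPKM, which scales reads by exon length and library size. Differences were tested with limma where a gene averaged 0.5 RPKM or more across the libraries. That limit kept 6 of the 8 genes, and Itgax and Itga6 fell under it.

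The cells came from retinas of wild-type (WT) mice, a C57BL/6J background per the study's methods, aged 6 to 8 weeks. They were sorted as CD90.2+ CD48neg CD15neg CD57neg cells to obtain retinal ganglion cells (RGCs), with CD48, a leukocyte antigen, among those used to remove cells. The 3 groups had 3 libraries each: normal retinas (Ctrl), retinas after optic nerve crush with intraocular PBS (ONC), and retinas after optic nerve crush with intraocular TPEN (TPEN). TPEN is a membrane-permeable chelator that binds zinc with high affinity, given at 100 μM, and the injured retinas were taken 3 d after the crush. The Ctrl mice had neither crush nor injection, so ONC/Ctrl compares crush and vehicle together with neither. Separate mice for each library are not stated in the sources used here, so p-values measure the spread between libraries, which may be technical.

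Library totals ranged from 19946993 to 23109754 reads. Rod genes dominated the libraries. The 5 rod markers together stood at 16766 to 17578 RPKM in Ctrl, 14665 to 14889 in ONC and 15772 to 15897 in TPEN. RGC markers (8 listed of 9) summed to 331 to 342 RPKM in Ctrl, 347 to 368 in ONC and 267 to 280 in TPEN. Of 5 RGC markers tested, 1 (Thy1) was higher in TPEN/ONC at a limma adjusted p under 0.05 and 3 were lower. Among all genes tested, 3.24% were higher and 4.14% lower. The part of these differences in the subunit levels was not tested. Most of the RGC sum was Nefl and Nefm, with means of 240 and 51.5 RPKM, and these genes share 1108 exon bases. Rbpms, Slc17a6 and Pou4f1 averaged 0.439, 0.380 and 0.332 RPKM, under the limit for testing. The label of RGCs is therefore used here only for how the cells were sorted. All 12 lymphocyte markers looked for (among them Cd3e, Cd4 and Nkg7) and 9 of 10 monocyte and neutrophil markers were not among the listed genes. The 13 listed of 14 microglia and macrophage markers summed to 9.36 to 9.55 RPKM in Ctrl, 54.0 to 56.4 in ONC and 32.0 to 35.0 in TPEN, and no marker defining these cells was at 0 in all libraries of a group.

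Promoter sequence was found in RefSeq (GRCm38.p6) for 7 of the 10 genes. The 250 bases before the start are shown 5′ to 3′ for the 2 listed alpha subunits that pair with Itgb2 and for the beta subunits Itgb1 and Itgb5, to set genes whose levels changed by large and small amounts side by side. Capitals mark GAGGAA (a core of sites for PU.1, a factor of myeloid cells), GGGCGG (the GC box) and TATAAA, on either strand, and no base lay in 2 motifs.

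Itgam (chr7:128062390-128062639, plus strand): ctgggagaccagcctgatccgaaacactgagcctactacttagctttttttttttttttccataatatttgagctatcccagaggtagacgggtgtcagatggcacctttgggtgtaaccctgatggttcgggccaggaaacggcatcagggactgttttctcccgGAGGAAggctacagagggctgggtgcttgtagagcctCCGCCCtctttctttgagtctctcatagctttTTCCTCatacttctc

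Itgax (chr7:128129300-128129549, plus strand): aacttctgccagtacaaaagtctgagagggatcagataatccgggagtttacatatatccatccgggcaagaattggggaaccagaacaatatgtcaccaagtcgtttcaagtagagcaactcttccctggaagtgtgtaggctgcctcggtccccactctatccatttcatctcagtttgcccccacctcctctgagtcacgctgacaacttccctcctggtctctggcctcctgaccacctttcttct

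Itgb1 (chr8:128685404-128685653, plus strand): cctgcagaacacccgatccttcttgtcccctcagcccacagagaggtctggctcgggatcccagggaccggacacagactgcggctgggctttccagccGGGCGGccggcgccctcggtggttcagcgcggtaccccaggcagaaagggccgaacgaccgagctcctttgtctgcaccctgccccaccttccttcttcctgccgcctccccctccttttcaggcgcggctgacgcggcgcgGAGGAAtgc

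Itgb5 (chr16:33829415-33829664, plus strand): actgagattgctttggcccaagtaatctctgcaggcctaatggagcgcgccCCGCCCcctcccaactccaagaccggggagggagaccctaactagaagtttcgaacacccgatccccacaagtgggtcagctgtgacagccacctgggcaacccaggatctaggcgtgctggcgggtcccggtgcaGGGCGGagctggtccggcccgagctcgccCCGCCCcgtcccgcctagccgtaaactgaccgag

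GAGGAA was in 23.3% of the 32851 promoters of this length, GGGCGG in 32.7% and TATAAA in 12.4%. The Itgam promoter held 2 GAGGAA and 1 GGGCGG, and that of Itgax held none of the 3 motifs. The Itgb1 promoter held 1 GAGGAA and 1 GGGCGG, and that of Itgb5 held 3 GGGCGG. Of the promoters not shown, that of Itgav held 2 GAGGAA, as many as Itgam. That of Itga5 held 1 GAGGAA and 2 GGGCGG, and that of Itga4 held 1 GGGCGG. CpG dinucleotides numbered 6 and 5 in Itgam and Itgax and 21 and 18 in Itgb1 and Itgb5, with a median of 6 over the 32851 promoters. These are matches of letters and not known sites.

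Of the 6 genes tested, Itgam and Itgb2 had the largest changes in all 3 comparisons. Itgam, the alpha M subunit, lies at chr7:128062640-128128160 (mm10, plus strand, 31 merged exons). Its level was 0.322, 0.353 and 0.320 RPKM in the Ctrl libraries, 5.10, 5.77 and 5.47 in ONC and 2.15, 1.96 and 2.26 in TPEN. The 3 groups did not overlap. The mean of ONC was 16.4-fold that of Ctrl, and the mean of TPEN was 0.390 of that of ONC. Fewer cells of a type and less RNA per cell cannot be told apart in such bulk libraries. On the scale of log2(RPKM + 0.1), Itgam rose by 3.68 in ONC/Ctrl (SE 0.10, limma adjusted p = 1.0e-08) and fell by 1.32 in TPEN/ONC (SE 0.10, adjusted p = 5.8e-05).

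Itgb2, the beta chain of these receptors (chr10:77530252-77565708, plus strand), followed the same order. It stood at 0.205, 0.142 and 0.180 RPKM in Ctrl, 3.56, 3.55 and 3.54 in ONC and 1.67, 1.15 and 1.15 in TPEN, with no overlap between groups. The SD of the ONC libraries was 0.0129 RPKM, whereas TPEN replicate 1 stood above the other TPEN libraries. Itgb2 rose by 3.74 on the log2 scale in ONC/Ctrl (SE 0.16, adjusted p = 3.0e-07) and fell by 1.38 in TPEN/ONC (SE 0.16, adjusted p = 0.00107). The size of these log2 values depends on the 0.1 RPKM added. With 1 RPKM added the ONC/Ctrl change was 2.27 for Itgam and 1.95 for Itgb2, and with voom on whole reads it was 4.02 and 4.30. Against Ctrl, the TPEN libraries were still 2.36 higher on the log2(RPKM + 0.1) scale for each gene, with adjusted p-values of 4.2e-07 for Itgam and 1.3e-05 for Itgb2. With 1 RPKM added these differences were 1.23 and 0.98. Of the rise from Ctrl to ONC in RPKM, TPEN libraries held 35.0% ± 2.91 (SD, n = 3) for Itgam and 34.0% ± 8.93 for Itgb2. The microglia and macrophage markers, with the sums given above, stood in the same order of groups, and their part in these values was not tested.

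Itgax, the alpha X subunit (CD11c), begins 1387 bases past the end of Itgam on chromosome 7. It rested on few reads, with 0, 2 and 2 in the Ctrl libraries, 55, 20 and 48 in ONC and 30, 14 and 12 in TPEN. In RPKM this was at most 0.0207 in Ctrl, 0.181 to 0.498 in ONC and 0.125 to 0.313 in TPEN. All ONC and TPEN libraries exceeded Ctrl, but the ONC and TPEN ranges overlapped. Scaled to library totals, ONC held 29.3 times the reads of Ctrl, with an exact 95% interval of 11.1 to 109 that covers counting error only. Fitted without the limit on low values, Itgax was 1.99 higher in ONC/Ctrl (SE 0.32, limma adjusted p = 0.0017) and its TPEN/ONC difference of -0.69 (SE 0.32) did not pass the test (adjusted p = 0.242).

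**Figure D1:**
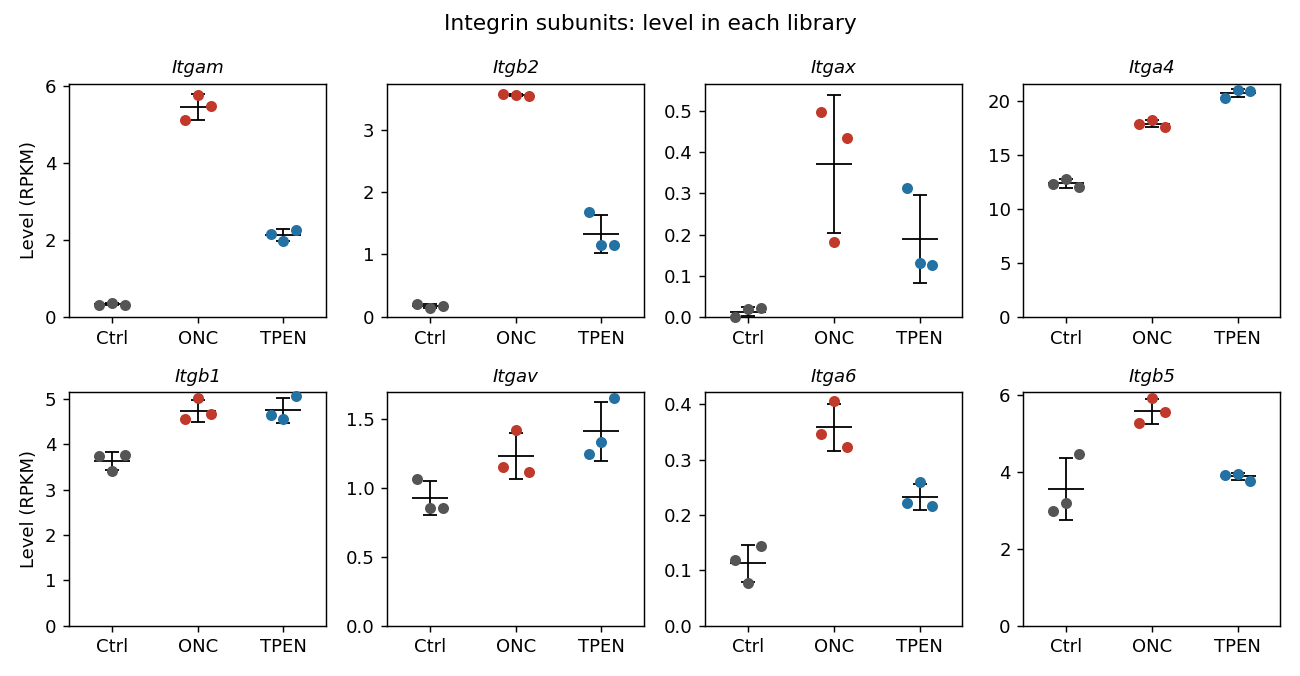
Level in RPKM (vertical axis, from 0) of the 8 listed integrin subunits in each Ctrl, ONC and TPEN library; points are libraries, and horizontal bars with whiskers are the mean ± SD of 3. Itgam and Itgb2 stood highest in ONC with TPEN in between, whereas Itga4 stood highest in TPEN, at 20.3 to 21.0 RPKM.

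Itga4, the alpha 4 subunit that binds vascular cell adhesion molecule 1 and fibronectin, had the highest level of the 8 genes. It lies at chr2:79255426-79333123 on the plus strand. The level was 12.345, 12.764 and 12.005 RPKM in Ctrl, 17.9, 18.2 and 17.6 in ONC and 20.3, 21.0 and 21.0 in TPEN. Every TPEN library was above every ONC library, and every ONC library above every Ctrl library. Itga4 rose by 0.53 on the log2 scale in ONC/Ctrl (SE 0.04, limma adjusted p = 1.1e-05) and by a further 0.21 in TPEN/ONC (SE 0.04, adjusted p = 0.0108), so TPEN exceeded Ctrl by 0.74 (adjusted p = 2.0e-06).

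The level of Itga4 is uncertain, since 1124 of its 13978 exon bases are shared with Cerkl, a ceramide kinase-like gene of photoreceptors on the minus strand. The libraries were made with a stranded kit, but the sources used here do not state whether strand was used in counting. Cerkl stood at 74.1 to 77.8 RPKM in Ctrl, 107 to 111 in ONC and 96.5 to 102 in TPEN. How reads on bases of both genes were counted is not stated either. Suppose the shared bases carried reads at the level of Cerkl and these were counted for both genes. They would then give 5.96 to 6.26 RPKM of the Itga4 value in Ctrl, 8.60 to 8.94 in ONC and 7.76 to 8.24 in TPEN. With those amounts taken away, a step added after the data were seen, Itga4 was 0.55 higher in ONC/Ctrl (adjusted p = 1.0e-04) and 0.48 higher in TPEN/ONC (adjusted p = 0.00106) on the log2 scale. The log2 ratio of Itga4 to Cerkl was -2.66 to -2.55 in Ctrl and ONC and -2.29 to -2.24 in TPEN. No other of the 8 genes overlapped a listed gene.

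**Figure D2:**
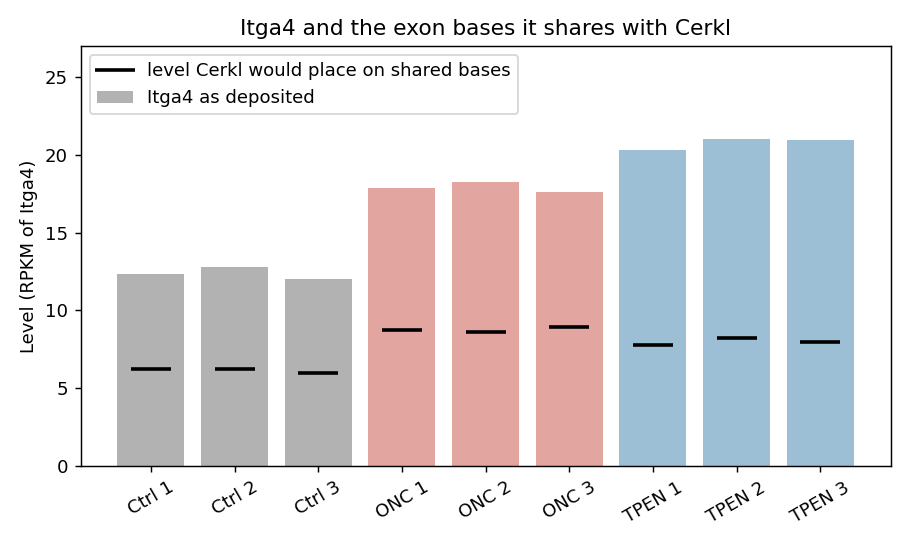
Bars give the deposited level of Itga4 (vertical axis, RPKM) in each library. Black marks give the level that reads of Cerkl would place on the exon bases both genes share. That level assumes that strand was not used and that reads on shared bases were counted for both genes. The marks stand at 5.96 to 8.94 RPKM, under the bar in every library.

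The matrix integrins changed by smaller amounts. Itgb1, the common beta 1 chain (chr8:128685654-128733200, plus strand), stood at 3.75, 3.40 and 3.76 RPKM in Ctrl, 4.55, 5.01 and 4.66 in ONC and 4.63, 4.56 and 5.06 in TPEN. ONC and TPEN overlapped, and both lay above Ctrl. Itgb1 rose by 0.37 in ONC/Ctrl (SE 0.07, limma adjusted p = 0.0061) and by 0.38 in TPEN/Ctrl (SE 0.07, adjusted p = 0.00841). The TPEN/ONC difference was 0.0019 (SE 0.07, adjusted p = 0.994).

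Itgav, the alpha V chain (chr2:83724397-83806916, plus strand), stood at 1.07, 0.858 and 0.858 RPKM in Ctrl, 1.15, 1.42 and 1.12 in ONC and 1.25, 1.33 and 1.65 in TPEN. Its log2 difference was 0.37 in ONC/Ctrl (SE 0.15), which did not pass the test (limma adjusted p = 0.121). It passed in TPEN/Ctrl, at 0.55 (adjusted p = 0.0388), but not when any of Ctrl replicates 2 and 3, ONC replicates 1 and 3 or TPEN replicates 2 and 3 was left out, with adjusted p-values up to 0.123.

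Itgb5, the beta 5 chain (chr16:33829665-33949153, plus strand), was highest in ONC. Its level was 2.99, 3.19 and 4.47 RPKM in Ctrl, 5.27, 5.91 and 5.54 in ONC and 3.93, 3.94 and 3.77 in TPEN. Each ONC library was above all others, and TPEN lay inside the range of Ctrl, which Ctrl replicate 3 widened. Itgb5 rose by 0.66 in ONC/Ctrl (SE 0.13, limma adjusted p = 0.00644) and fell by 0.51 in TPEN/ONC (SE 0.13, adjusted p = 0.0461). The fall lost the call without Ctrl replicate 2 and without each of the ONC and TPEN libraries, with adjusted p-values up to 0.141. TPEN/Ctrl was 0.15 (SE 0.13, adjusted p = 0.53), and 0.32 without Ctrl replicate 3 (adjusted p = 0.0326).

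Itga6, the laminin-binding alpha 6 chain (chr2:71745616-71858416, plus strand), was scarce, with 16 to 84 reads a library. It stood at 0.119, 0.0767 and 0.143 RPKM in Ctrl, 0.347, 0.405 and 0.323 in ONC and 0.222, 0.259 and 0.217 in TPEN, and the groups did not overlap. Fitted without the limit on low values, it was 1.12 higher in ONC/Ctrl (SE 0.17, limma adjusted p = 0.00116), and TPEN/ONC at -0.46 (SE 0.17) did not pass (adjusted p = 0.137).

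Of the 6 genes tested, 5 were called higher in ONC/Ctrl at an adjusted p under 0.05, where 11.7% of the 13566 genes tested were. Itgam and Itgb2 were under 0.5 RPKM in Ctrl and met the limit through the other groups, so this count and those of the other comparisons are a description. In TPEN/ONC, 3 of the 6 were called lower (Itgam, Itgb2 and Itgb5) against 4.14% of genes, and 1 higher (Itga4) against 3.24%. In TPEN/Ctrl, 5 of the 6 were called higher (Itgam, Itgb2, Itga4, Itgb1 and Itgav) against 8.36%. ONC/Ctrl and TPEN/ONC share the ONC libraries, so their values are not independent. When the null was a 1.5-fold change in place of no change, only Itgam and Itgb2 passed in ONC/Ctrl and TPEN/Ctrl, and only Itgam in TPEN/ONC, Itgb2 having an adjusted p of 0.0934.

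**Figure D3:**
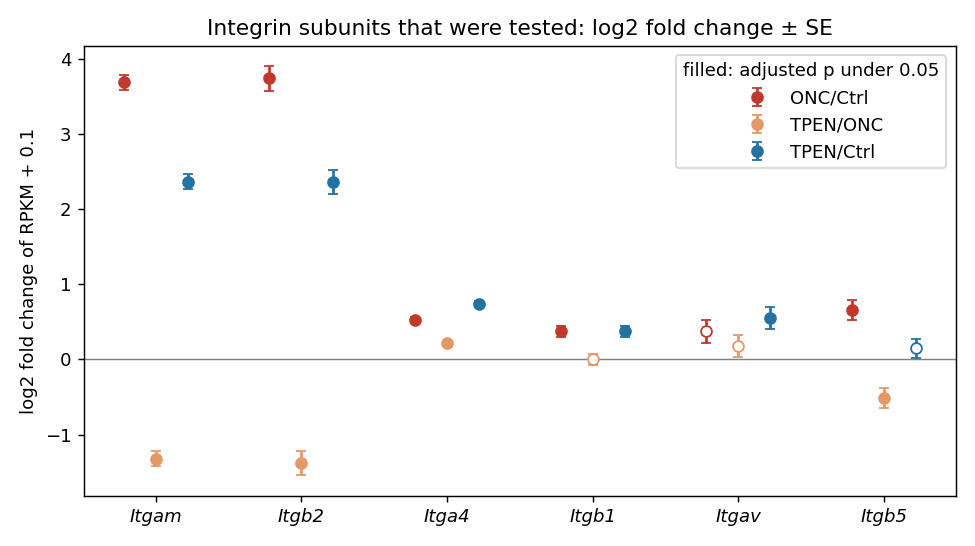
Log2 fold change of RPKM + 0.1 (vertical axis) with its SE from limma for the 6 integrin subunits tested, in ONC/Ctrl, TPEN/ONC and TPEN/Ctrl; filled points had an adjusted p under 0.05. Itgam and Itgb2 lie at 3.68 and 3.74 in ONC/Ctrl, and the other 4 genes stay under 1 in every comparison.

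The ratio of subunits that pair in one receptor was compared within each library, so that a change shared by both cancels. Of 8 planned ratios 5 could be tested, since Itgal and Itga5 were not listed and Itgax had no read in Ctrl replicate 1. Of the 280 ways to divide 9 libraries into 3 groups of 3, the smallest p is 0.00357, and a pair of groups cannot go below 0.1. The log2 ratio of Itgam to Itgb2 was 0.93 ± 0.34 in Ctrl (SD, n = 3), 0.62 ± 0.09 in ONC and 0.70 ± 0.31 in TPEN, which did not pass (exact permutation p = 0.404, Benjamini-Hochberg adjusted p = 0.404). Itgam and Itgax together stood at 1.57 to 2.62 times Itgb2 in Ctrl, 1.57 to 1.68 times in ONC and 1.47 to 2.07 times in TPEN, on the RPKM scale.

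The ratio of Itga6 to Itgb1 differed between the groups, at -5.06 ± 0.39 in Ctrl, -3.73 ± 0.11 in ONC and -4.36 ± 0.21 in TPEN (exact permutation p = 0.00357, the smallest the design allows, adjusted p = 0.0179). The ratio of Itga4 to Itgb1 also differed, at 1.77 ± 0.12, 1.92 ± 0.06 and 2.13 ± 0.08 (exact permutation p = 0.00714, adjusted p = 0.0179), with the reserve on Itga4 given above. Itgav to Itgb1 was -1.98 ± 0.16, -1.95 ± 0.12 and -1.76 ± 0.14 (exact permutation p = 0.2, adjusted p = 0.25). Itgav to Itgb5 was -1.92 ± 0.45, -2.18 ± 0.13 and -1.47 ± 0.25 (exact permutation p = 0.111, adjusted p = 0.185). Without Ctrl replicate 1 or 3 the unadjusted exact p of this last ratio was 0.0393 and 0.025.

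Of 16 other integrin subunits looked for, 8 were listed (Itga2b, Itga3, Itga9, Itga10, Itgae, Itgb3, Itgb4 and Itgb8), and all 8 had a mean under 0.5 RPKM. Fitted without that limit, 2 were called higher in ONC/Ctrl by limma. Among the 13566 genes over the limit, 11.7% were. Itgb3, the beta chain of the platelet fibrinogen receptor and a partner of Itgav, was 1.15 higher (SE 0.23, adjusted p = 0.00657). Itgb8, an Itgav partner that activates latent TGF beta, was 0.67 higher (SE 0.17, adjusted p = 0.0226). Itgb3 rested on 11 reads over the Ctrl libraries, 72 over ONC and 36 over TPEN.

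Among 40 ligands of these receptors 26 were listed and 19 tested. In ONC/Ctrl 7 were called higher and 3 lower, against 11.7% and 6.97% of all genes tested, with a median log2 fold change of 0.28 against 0.02 over all genes. Of the 7, 6 were under 0.5 RPKM in Ctrl and met the limit through the other groups, so the count and median are a description. The matrix ligand Spp1 (osteopontin) rose from 0.115 ± 0.106 RPKM (SD, n = 3) in Ctrl to 6.27 ± 0.456 in ONC, a log2 fold change of 5.04 (limma adjusted p = 7.5e-06). Thbs1 (thrombospondin 1) rose by 3.41 (adjusted p = 7.9e-06) and Fn1 (fibronectin) by 2.73 (adjusted p = 5.3e-07). C3, whose fragment iC3b binds Itgam with Itgb2, rose by 2.66 (adjusted p = 9.5e-06), and Icam1, a ligand of the beta 2 integrins, by 2.27 (adjusted p = 4.4e-05). The other 2 were F11r (1.83) and Col4a1 (1.29).

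In TPEN/ONC 6 of the 19 ligands were called lower and 1 higher, against 4.14% and 3.24% of all genes tested. Thbs1 and C3 were under 0.5 RPKM in Ctrl and TPEN and met the limit through ONC, so this count is a description. Thbs1 fell by 2.51 (adjusted p = 2.9e-04), from 1.33 ± 0.122 RPKM in ONC to 0.157 ± 0.0704. C3 fell by 2.04 (adjusted p = 2.7e-04), from 1.63 ± 0.300 to 0.318 ± 0.0591, and Fn1 by 1.78 (adjusted p = 4.3e-05), from 3.27 ± 0.128 to 0.886 ± 0.105. Spp1 fell by 1.46 (adjusted p = 0.0335), and Icam1 (-0.81, adjusted p = 0.0414) and Col4a1 (-0.38, adjusted p = 0.0259) were the others. These last 3 lost the call on leaving out single libraries, and the count lower then ran from 3 to 6. Spp1 lost it without each of the ONC and TPEN libraries, Icam1 without Ctrl 1 or 2, ONC 2 or 3 or TPEN 1 or 3, and Col4a1 without ONC 1 or 3 or TPEN 1 or 2.

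Not all ligands followed that order. Col4a2, whose protein joins that of Col4a1 in collagen IV, stood at 1.06 ± 0.0682 RPKM in Ctrl, 0.598 ± 0.0288 in ONC and 1.38 ± 0.314 in TPEN. It fell by 0.73 in ONC/Ctrl (adjusted p = 0.00928) and rose by 1.07 in TPEN/ONC (adjusted p = 0.00346), in both comparisons opposite to Col4a1, with which it shares 22 exon bases. Cyr61, a matricellular ligand, fell by 0.95 in ONC/Ctrl (adjusted p = 0.0171, lost without Ctrl replicate 1 or without ONC replicate 1 or 3), and Jam2 by 0.20 (adjusted p = 0.0345, lost without any Ctrl library or without ONC replicate 1 or 2). The count lower was 1 without Ctrl replicate 1 or ONC replicate 1. Vtn (vitronectin), the ligand with the highest level, was at 285 to 348 RPKM in all libraries, and its ONC/Ctrl difference of -0.07 did not pass (SE 0.05, adjusted p = 0.387).

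**Figure D4:**
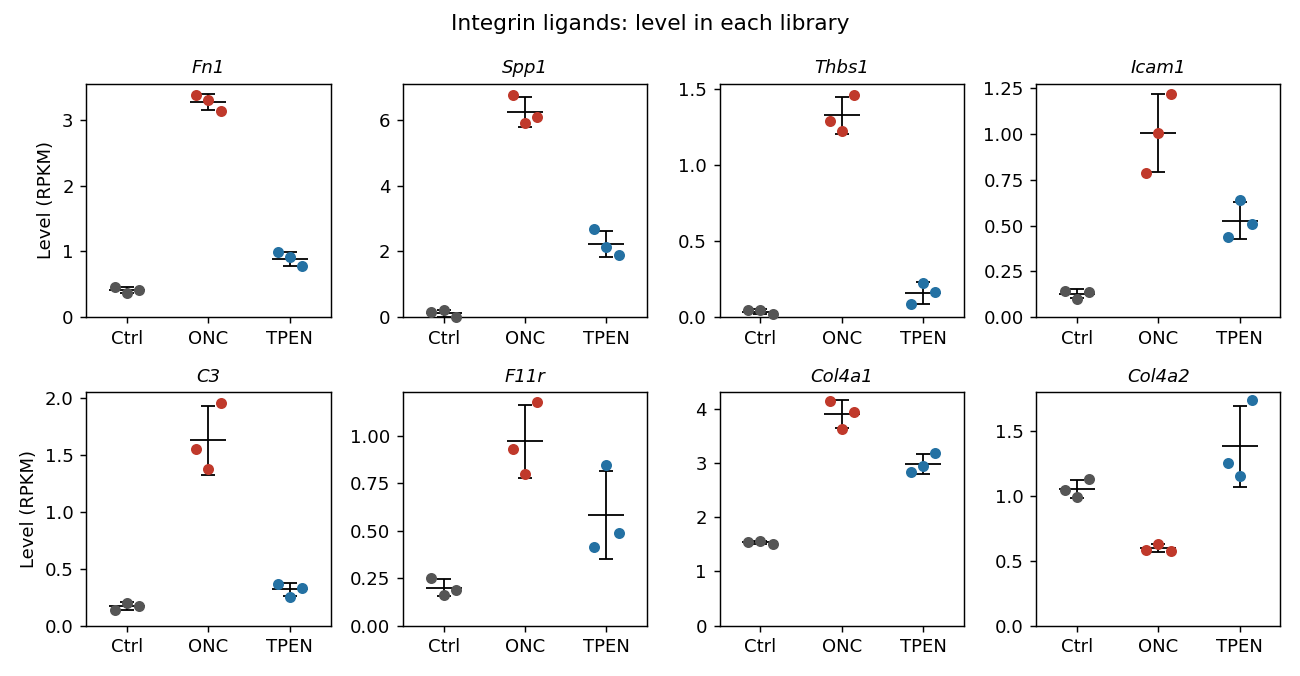
Level in RPKM (vertical axis, from 0) of 8 integrin ligands in each Ctrl, ONC and TPEN library; points are libraries, and horizontal bars with whiskers are the mean ± SD of 3. Fn1, Spp1, Thbs1, Icam1, C3, F11r and Col4a1 had their highest mean in ONC, whereas Col4a2 had its lowest there, at 0.598 ± 0.0288 RPKM.

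Of 40 integrin activators and adaptors, which link the cytoplasmic tails to actin and to kinases, 38 were listed and 33 tested. In ONC/Ctrl 10 were called higher and 1 lower, against 11.7% and 6.97% of all genes tested, with a median log2 fold change of 0.15. Of the 10, 2 were under 0.5 RPKM in Ctrl. Lyn, a Src family kinase, rose by 2.94 (limma adjusted p = 3.6e-06). Fermt3 (kindlin 3), the activator of integrins in blood cells, rose by 1.81 (adjusted p = 3.2e-04), from 0.593 ± 0.205 RPKM to 2.30 ± 0.472. Zyx (zyxin) rose by 1.21 (adjusted p = 2.3e-04). Fermt2 (kindlin 2), the form of most other cells, differed by 0.10 (SE 0.08, adjusted p = 0.438).

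Talin links the beta tail to actin. Tln1 rose by 0.31 (adjusted p = 0.0045), from 7.24 ± 0.191 to 9.01 ± 0.167 RPKM, and Tln2 fell by 0.19 (adjusted p = 0.00665), from 15.9 ± 0.354 to 14.0 ± 0.308. In TPEN/ONC 3 of the 33 were called lower, against 4.14% of all genes tested. They were Lyn (-0.89, adjusted p = 0.0177), Fermt3 (-0.88, adjusted p = 0.0409) and Tln1 (-0.24, adjusted p = 0.0358). Spp1 shared 18.8% of its exon bases with another listed gene, Lyn 6.09%, Tln1 3.67%, Fermt3 3.36% and Fn1 2.5%, so their levels are less certain. The count of 3 ran from 0 to 4 when single libraries were left out, and was 8 with voom on whole reads.

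All 11 tested microglia and macrophage markers were called higher in ONC/Ctrl, against 11.7% of all genes tested, with a median log2 fold change of 2.73. Of the 11, 6 were under 0.5 RPKM in Ctrl and met the limit through the other groups, so the counts and medians of this list are a description. The largest were C1qa (3.39), Fcer1g (3.16), C1qb (3.13) and Cd68 (3.09). In TPEN/ONC 6 of the 11 were called lower, against 4.14% of all genes tested, with a median of -0.83 against -0.01 over all genes. The falls were led by Fcer1g (-1.79, limma adjusted p = 0.0187), Cd68 (-1.24, adjusted p = 0.00498), Aif1 (-1.23, adjusted p = 0.0245) and Tmem119 (-0.99, adjusted p = 0.0388). The count of 6 ran from 2 to 9 when single libraries were left out, and was 10 with a pseudocount of 1 RPKM and 11 with voom. Cx3cr1, P2ry12, C1qa, C1qb and C1qc were lower in TPEN/ONC but did not pass (limma adjusted p from 0.0536 to 0.155). Spp1, Thbs1, Fn1, C3, Icam1, Col4a1, Lyn, Fermt3 and Tln1 passed the test upward in ONC/Ctrl and downward in TPEN/ONC. So did the 6 markers called lower, and the part of the markers in those results was not tested. Col4a2, Cyr61, Jam2 and Tln2 were called lower in ONC/Ctrl.

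Csf3r, the listed one of the monocyte and neutrophil markers, was at 0.124 to 0.223 RPKM in Ctrl, 0.989 to 1.13 in ONC and 0.250 to 0.511 in TPEN. Pf4, a platelet gene also made by macrophages, had 2 reads over the Ctrl libraries, 91 over ONC and 2 over TPEN, and met the limit through ONC alone. The other tested platelet marker, Gp1bb, was not called (ONC/Ctrl 0.39, limma adjusted p = 0.0526). Gp1bb shares 31.5% of its exon bases with Sept5, which averaged 11.5 RPKM against 2.31 for Gp1bb, so its level is uncertain.

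Of the 6 tested Muller glia and astrocyte markers, 2 were called higher in ONC/Ctrl and 3 lower, against 11.7% and 6.97% of all genes tested. Their median log2 fold change was -0.01. Gfap, the intermediate filament of reactive glia, rose by 2.95 (limma adjusted p = 1.6e-09) and Vim (vimentin) by 1.59 (adjusted p = 4.4e-08). Glul fell by 0.57 (adjusted p = 9.7e-07), Aqp4 by 0.32 (adjusted p = 0.01) and Rlbp1 by 0.18 (adjusted p = 0.0034). In TPEN/ONC 1 of the 6 was called higher and 4 lower, against 3.24% and 4.14% of all genes tested. Aqp4 was the higher one (0.30, lost without Ctrl replicate 1, ONC replicate 1 or 3, or TPEN replicate 1 or 3), and Gfap fell by the most (-0.63). The 4 listed of 7 endothelial cell and pericyte markers summed to 11.9 to 12.6 RPKM in Ctrl, 14.0 in ONC and 15.0 to 16.0 in TPEN, but the markers did not share that order. Kdr stood at 10.7 ± 0.435 RPKM in Ctrl, 12.5 ± 0.173 in ONC and 14.1 ± 0.586 in TPEN, whereas Pdgfrb had its highest mean in Ctrl (0.381 ± 0.0807) and Rgs5 its lowest in TPEN (0.533 ± 0.0513). Pecam1 stood at 0.546 ± 0.0831 RPKM in Ctrl, 0.541 ± 0.109 in ONC and 0.653 ± 0.135 in TPEN, and was not called in any comparison. Of these markers only Kdr stood in the order of Itga4, and the part of these cells in the Itga4 level was not tested.

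The genes whose levels ran most like each subunit over the 9 libraries were taken from 12137 others with a mean of at least 1 RPKM, by Pearson's r on log2(RPKM + 0.1). The libraries form 3 groups and the values are a description. For Itgam these were Tgm2 (r of 0.997), Mpeg1 (0.997) and Msn (0.996). For Itgb2 they were Gbp3 (0.996), Msn (0.995) and Parp14 (0.994), and r between Itgam and Itgb2 was 0.993. For Itga4 they were Ctnna1 (0.998), Adamts1 (0.996) and Ank3 (0.994), all with their highest mean in TPEN. For Itgb1 they were Srxn1 (0.986), Etv6 (0.984) and Stard9 (0.981). For Itgb5 they were Nfe2l1 (0.979), Dapk3 (0.971) and Ogfrl1 (0.967), and for Itgav Limd1 (0.965), Srp19 (0.961) and Cecr2 (0.956). Between Itgav and its partner Itgb5, r was 0.232.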

How the data were processed

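RNA of sorted cells was sequenced from 9 libraries with a stranded kit that adds molecular identifiers. Per the labels and the study's methods, the authors trimmed reads (Trimmomatic 0.36), mapped them to GRCm38/mm10 and deposited RPKM values per gene. The counting program, the annotation and whether strand or identifiers were used in counting are not given in the sources used here. The table also holds the authors' own log2 fold changes, p-values and FDRs of 3 comparisons, which were not used. Groups followed the treatment in the labels.

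RPKM times exon length gave whole reads for 100% of values within 0.01 read, so reads and library totals were worked out from them. A gene with no read could hold up to 3 reads in a library, a floor for counting error only.

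A single limma fit of all 9 libraries (limma 3.58.1, R 4.3.3) on log2(RPKM + 0.1), its prior variance trended on expression, covered the 13566 genes that averaged 0.5 RPKM or more. P-values were adjusted over these 13566 genes by Benjamini-Hochberg. The added 0.1 RPKM makes fold changes of low genes smaller. Called means an adjusted p under 0.05. Itgax and Itga6, under the limit, were fitted with all genes listed. Subunit ratios were compared by two-sided exact permutation tests. The code was tested on simulated data with known changes.

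The genes described are the 10 subunits, the 3 genes most correlated with each tested subunit, and up to 4 genes per list, comparison and direction with the largest change among those called, plus defining markers. Icam1, F11r, Col4a1 in ONC/Ctrl and TPEN/ONC, Vtn, Fermt2 and Tln1 in ONC/Ctrl were added after their values were seen. Members and lists were chosen with earlier results of these data known. Alternatives were another pseudocount, other limits on low values, quantile and median-ratio scaling, fits of 6 libraries, a replicate block, each library left out, a null of a 1.5-fold change and voom on whole reads.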

Additional observations from a re-analysis of the deposited data

How the results depend on the processing

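Direction did not change for the 6 tested subunits in 327 alternative values, except Itgb1 in TPEN/ONC, whose difference near 0 ran from -0.0437 (without TPEN replicate 3) to 0.0418 (without ONC replicate 2) and was also below 0 without ONC replicate 1 or 3. In 296 of the 327 the direction and the side of the threshold were kept, in 26 the call was lost and in 2 it was gained. Against a null of a 1.5-fold change, 2 subunits were higher in ONC/Ctrl, 0 higher and 1 lower in TPEN/ONC, and 2 higher in TPEN/Ctrl; here the null itself is stricter. Itgav in ONC/Ctrl passed with voom (adjusted p = 0.0204), and Itgav in TPEN/Ctrl did not with quantile scaling (0.077) or 6 libraries (0.0638); the cause was not tested.

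Libraries with the same number did not deviate together, with correlations of -0.06 to 0.03 over 9 pairs, so the numbers were not taken as pairs. With the replicate block, 5 subunits were higher in ONC/Ctrl, 1 higher and 2 lower in TPEN/ONC, and 4 higher in TPEN/Ctrl, without Itgb5 (adjusted p = 0.0701) and Itgav (0.084).

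The ONC minus Ctrl difference of the log2 ratio of Itgav to Itgb1, near 0, became -0.00088 with 0.1 RPKM added and ran from -0.0517 to 0.108 when single libraries were left out (below 0 without Ctrl replicate 3 or ONC replicate 2). The TPEN minus ONC difference of Itgam to Itgb2 ran from -0.0489 (without TPEN replicate 3) to 0.256. Depth limits Itgax and Itga6, with at most 84 reads a library.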
